A study of Rattus norvegicus with 16 samples.

Results

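The rat major histocompatibility complex, named RT1, was examined in a model of allergic airway inflammation. Its genes were taken as every RefSeq transcript on the array whose gene symbol begins with RT1-, together with Cd74, B2m, Ciita and Nlrc5, which assemble, stabilise or switch on the RT1 molecules. The rule gave 46 genes, of which 45 had a probe and Nlrc5 had none. They were part of 16678 gene symbols that could be named on the array. The 45 genes comprised 32 class I genes, 10 class II genes and the 3 partners Cd74, B2m and Ciita. In all, 58 probes measured them, and where a gene had several probes the brightest in each tissue was used.

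Lung and adipose tissue came from the same 8 male Brown Norway rats, giving 16 one-colour microarrays. Their stated age, 7 weeks, preceded the dosing, so the tissues were taken at a later age. The HDM group held 5 rats, sensitized under the skin weekly for 3 weeks with 45 µg of house dust mite (HDM) in aluminium hydroxide. They were then challenged through the nose with 120 µg of HDM in saline, 3 times a week for 3 weeks. The control group held 3 rats, which received saline in aluminium hydroxide and then saline alone, so the adjuvant was common to both groups. Each value below is a log2 signal relative to the 75th percentile of its own array, and values of different probes are not compared, since probes differ in brightness. A gene was called changed when limma gave an adjusted p below 0.05 over all 45598 probes together with a change beyond 1.5-fold.

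Class I molecules present peptides from inside the cell to CD8 T cells, are found on nearly all nucleated cells and need beta-2 microglobulin, the product of B2m, to be stable. Class II molecules present peptides from ingested material to CD4 T cells and belong mainly to dendritic cells, macrophages and B cells. Ciita is the master activator of class II transcription, Cd74 is the invariant chain that occupies the class II groove during transport, RT1-DM exchanges this chain for antigenic peptide, and RT1-DO tempers RT1-DM. In the rat, RT1-D and RT1-B are the main class II pairs, RT1-A holds the classical class I genes, and the RT1-CE, -M, -N, -S and -T groups hold mostly non-classical ones.

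Adipose arrays were dimmer than lung arrays. The 75th percentile of the signal ranged from 376 to 488 for lung and from 111 to 240 for adipose tissue, and the share of probes well above background was 62.2% to 68.8% in lung and 51.0% to 60.3% in adipose tissue. The tissue labels held, since 6 of 6 lung epithelium markers were called higher in lung and 6 of 6 adipocyte markers higher in adipose tissue of control rats. In the adipose arrays of HDM rat 1 and control rat 1, the summed signal of 8 epididymis and testis markers, as a multiple of the array's 75th percentile, was 2817 and 3545, against 0.312 to 28.8 in the other adipose arrays. Adipose results are therefore also given without these 2 rats. All lung arrays lay on 1 slide and all adipose arrays on another, so slide and tissue cannot be told apart. Within each slide, HDM rats 1 to 4 were in one row, and HDM rat 5 and the controls in the other.

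RT1 promoters were searched for motifs known from MHC genes. The letters searched were set after promoters had been seen, so the shares below describe these promoters and test nothing. Promoters were taken from RefSeq on the GRCr8 assembly, each running from 250 bases before the start of the transcript to 50 after it, and were found for 9 of 10 class II genes and 28 of 32 class I genes. The X box, searched by its consensus on both strands, binds the RFX complex through which Ciita acts. It was found in 0.478% of all 33469 promoters, in 5 of 9 class II promoters and in 0 of 28 class I promoters. The Y box, searched as CTGATTGG on both strands, was present in 3.5% of all promoters, in 7 of 9 class II promoters and in 11 of 28 class I promoters, there on the opposite strand. Its core GATTGG, which is contained in the Y box, was present in 14.8% of all promoters, in 9 of 9 class II promoters and in 14 of 28 class I promoters. The kB site GGGGATTCC, which NF-kB proteins bind, was in 0.281% of all promoters and in 9 of 28 class I promoters. The ISRE, an interferon-responsive element searched by its consensus, was in 0.875% of all promoters and in 11 of 28 class I promoters. Neither the kB site nor the ISRE was found in a class II promoter. The X box and the Y box occurred together in 5 promoters of the whole table, 4 of them class II, and the kB site and ISRE together in 11, of which 9 were class I. A match describes these letters only and is not evidence of binding.

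Apart from RT1-DMa, the class II stretches below come from genes with an X box, and the X box and the Y box, or its core, are in capitals. RT1-Db2, which had both boxes, and RT1-Ba, RT1-DOa and RT1-Ha, which had a Y box but no X box, are not shown. RT1-DMa is shown because it matched the core only. Near matches were not counted, and RT1-DMa holds, upstream of its core, a stretch that departs from the X box consensus at the first base only. RT1-DMb had no entry in the table. They lie on chromosome 20 of GRCr8, at chr20:4515328-4515374 (plus strand) for RT1-Da, chr20:4560234-4560279 (minus) for RT1-Db1, chr20:4604171-4604216 (minus) for RT1-Bb, chr20:4627598-4627641 (minus) for RT1-DOb and chr20:4712391-4712440 (minus) for RT1-DMa.
RT1-Da: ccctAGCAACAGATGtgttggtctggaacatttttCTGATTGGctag
RT1-Db1: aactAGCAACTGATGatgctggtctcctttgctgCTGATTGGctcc
RT1-Bb: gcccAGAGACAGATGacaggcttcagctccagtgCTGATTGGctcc
RT1-DOb: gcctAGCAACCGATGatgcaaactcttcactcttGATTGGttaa
RT1-DMa: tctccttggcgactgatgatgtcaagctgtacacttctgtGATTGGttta

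The class I stretches show the kB site followed by the ISRE, in capitals, for 2 classical genes and 2 RT1-CE genes whose levels in both tissues are described further on. They lie at chr20:4907079-4907117 (plus) for RT1-A1, chr20:4849277-4849315 (plus) for RT1-A3, chr20:3363338-3363376 (minus) for RT1-CE11 and chr20:3484223-3484261 (minus) for RT1-CE5. RT1-CE5 matched neither motif and is shown aligned to RT1-A1, with which it shared 36 of 39 bases, its capitals marking the aligned positions. Relative to RT1-A1 it carried G3A in the kB site and A1T in the ISRE, counted from 1 at the first base of each motif.
RT1-A1: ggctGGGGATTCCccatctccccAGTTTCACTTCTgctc
RT1-A3: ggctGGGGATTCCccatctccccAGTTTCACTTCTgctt
RT1-CE11: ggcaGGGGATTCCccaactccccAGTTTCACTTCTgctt
RT1-CE5: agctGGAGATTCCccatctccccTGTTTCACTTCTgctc

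The first comparison asked whether HDM changed RT1 expression in lung. No gene of the 45 was called, against 0.855% of all probes. By limma, 3 of 45 genes had an unadjusted p below 0.05, against 10.2% of all probes, and the methods' t-test called none and had 5 below 0.05. All 10 class II genes had a log2 change above 0, with a median of 0.15 and a range from 0.03 to 0.39, whereas 13 of 32 class I genes lay above 0, with a median of -0.04 and a range from -0.81 to 0.44. Among all probes 50.7% lay above 0 and the median was 0.00. With the class II gene that was not well above background on every array left out, the class II median was 0.10.

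**Figure D1:**
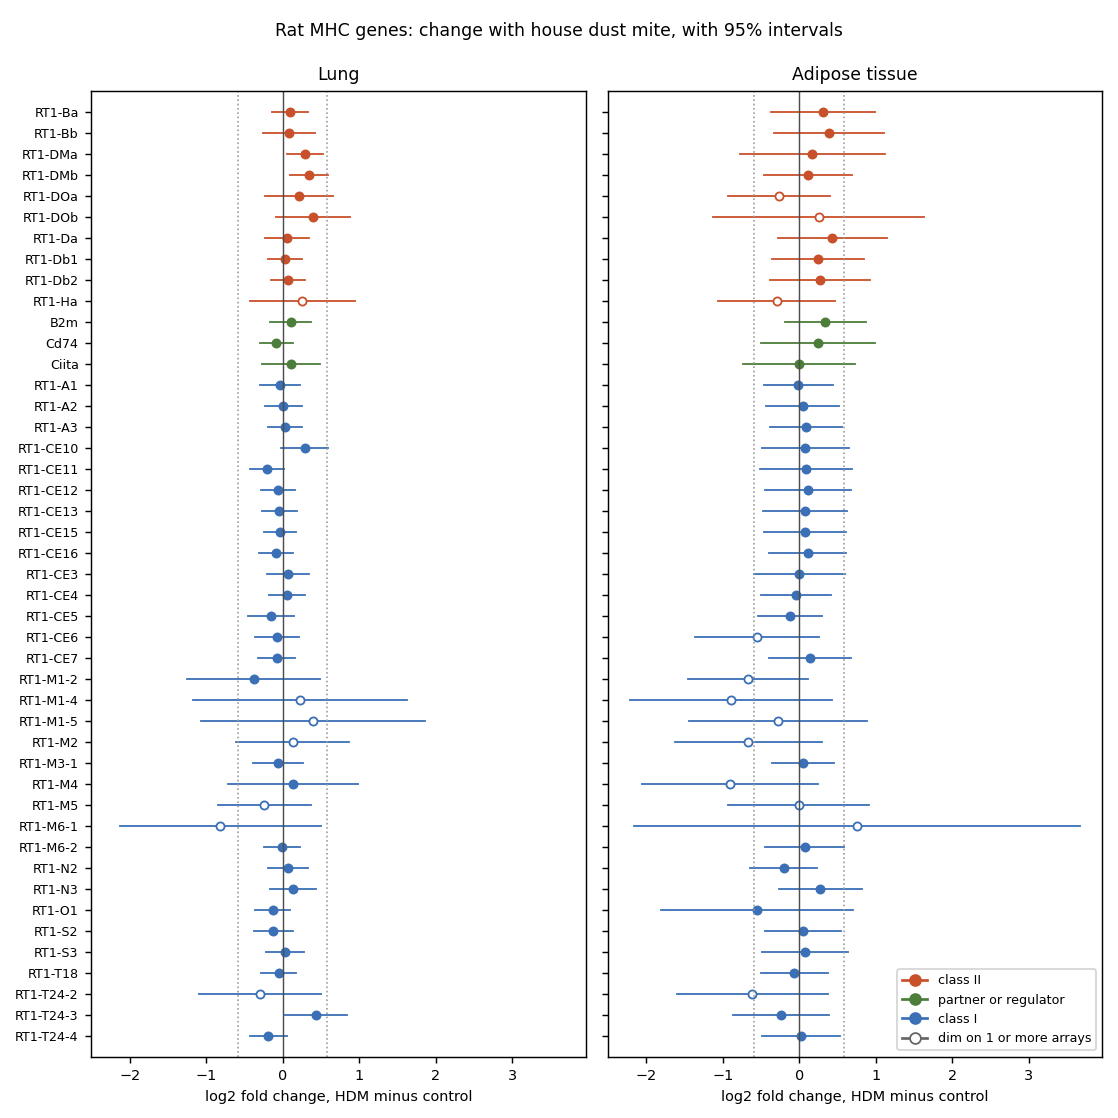
Log2 change in HDM rats against control rats (x axis) for each of the 45 genes (y axis) in lung (left) and adipose tissue (right), with limma estimates as points, 95% confidence intervals as bars, dotted lines at 1.5-fold and open points for probes not well above background on 1 or more arrays. All 10 class II points lie to the right of 0 in lung, with a median of 0.15, and the adipose intervals are wider, with a median half-width of 0.60 against 0.26 in lung.

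The clearest class II values in lung belonged to RT1-DM, the peptide exchange factor. RT1-DMb, its beta chain, measured 2.77, 2.61, 2.90, 2.82 and 2.68 in the HDM rats and 2.46, 2.45 and 2.32 in the controls. RT1-DMa, its alpha chain, measured 2.38, 2.26, 2.45, 2.34 and 2.27 in the HDM rats and 2.17, 2.01 and 1.96 in the controls. For both chains every HDM rat lay above every control rat, a pattern found with HDM higher in 4.66% of all probes. In lung 2 of the 45 genes had this pattern, a share near that of all probes. The log2 change of RT1-DMb was 0.34 (SE 0.11), a 1.27-fold difference with an adjusted p from limma of 0.264, and that of RT1-DMa was 0.29 (SE 0.10), 1.22-fold, with an adjusted p of 0.351. In the exact two-sided permutation test over the 56 splits of the rats, both reached 0.0179, the smallest p that 5 against 3 allows. The class I gene RT1-CE11, with HDM lower, reached the same p in this test. Neither RT1-DM chain met the call. After normexp background correction with quantile normalization the adjusted p from limma was 0.0139 for RT1-DMb and 0.0246 for RT1-DMa, still below 1.5-fold. For both chains this was the only alternative of 18 with an adjusted p below 0.05. With quantile normalization alone it was 0.0850 and 0.0969 by limma, and across the 18 it reached 0.865 and 0.900. The log2 change stayed above 0 in all 18, from 0.27 to 0.39 for RT1-DMb and from 0.22 to 0.35 for RT1-DMa. With the slide row as a block, 1 of the 45 genes had an unadjusted p below 0.05 by limma.

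The antigen-presenting class II pairs had values closer to 0. RT1-Da, the alpha chain of RT1-D, measured 4.74, 4.61, 4.67, 4.39 and 4.39 in HDM rats and 4.45, 4.45 and 4.61 in controls, a log2 change of 0.06 (SE 0.12). RT1-Db1, its beta chain, measured 4.66, 4.84, 4.80, 4.64 and 4.74 against 4.72, 4.69 and 4.70, a change of 0.03 (SE 0.10). The groups overlapped for both genes, and also for RT1-Db2 (0.06), RT1-Ba (0.10) and RT1-Bb (0.08), the other RT1-D and RT1-B chains. RT1-DOb, the beta chain of the RT1-DM modulator, had the largest class II change at 0.39 (SE 0.21). Its HDM rats lay between -2.427 and -2.109. Control rat 3, at -2.108, lay just above all of them, while control rats 1 and 2 were at -2.90 and -2.99. RT1-DOa changed by 0.21 (SE 0.19), and RT1-Ha, of the RT1-H locus, by 0.26 with a signal well above background on 4 of 8 arrays.

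Among the partners, Cd74 lay below 0. Cd74, the invariant chain, measured 6.01, 6.17, 6.03, 6.15 and 6.15 in HDM rats and 6.21, 6.13 and 6.21 in controls, with a log2 change of -0.09 (SE 0.09) and 0 of 5 HDM rats above the control mean. Ciita gave 0.11 (SE 0.17) from its brighter probe and -0.26 from its second probe, so its 2 probes disagreed in sign. B2m, the light chain of class I, gave 0.10 (SE 0.12). The intervals of all 3 lay within 1.5-fold in either direction.

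**Figure D2:**
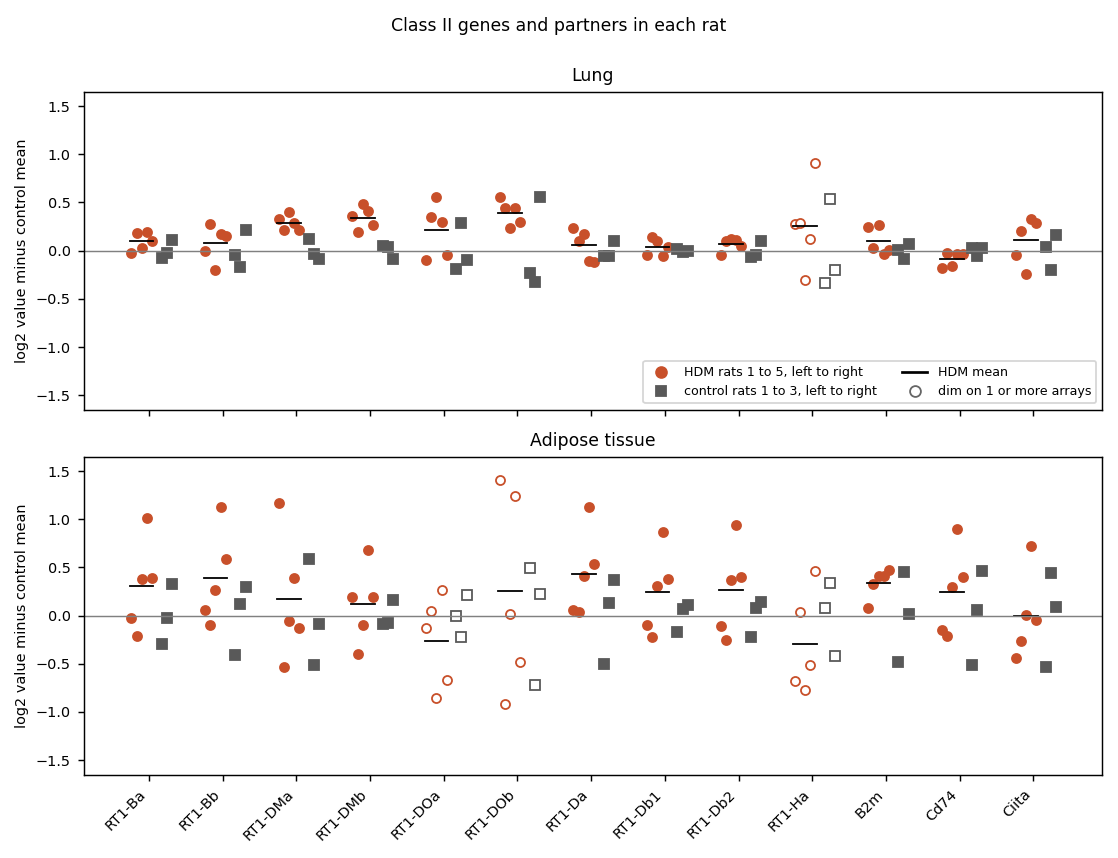
Log2 value of each rat minus the control mean (y axis) for the 10 class II genes and the 3 partners (x axis) in lung (top) and adipose tissue (bottom), with HDM rats 1 to 5 as circles, control rats 1 to 3 as squares, a line at the HDM mean, and open marks for probes not well above background on 1 or more arrays. In lung, RT1-DMa and RT1-DMb are the genes whose HDM rats all lie above the control rats, and in adipose tissue the spread between rats is wider.

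Class I genes in lung showed no common direction. The classical genes RT1-A1, RT1-A2 and RT1-A3 changed by -0.04, 0.01 and 0.03. Of the 11 RT1-CE genes 3 lay above 0 and 8 below. RT1-T24-3 had the largest change above 0 among well-measured class I genes, with 1.82, 1.80, 1.87, 1.39 and 1.67 in HDM rats and 1.47, 1.44 and 0.91 in controls. Its log2 change was 0.44 (SE 0.18, adjusted p = 0.443), and HDM rat 4 lay below control rats 1 and 2. RT1-M1-2, named after its values were seen, had the largest change below 0 among the well-measured genes, at -0.38 (SE 0.38, adjusted p = 0.89). It measured -4.73, -4.41, -3.48, -4.99 and -4.13 in HDM rats and -3.35, -4.47 and -4.08 in controls, so the groups overlapped. RT1-M6-1 and RT1-M1-5, with -0.81 and 0.40, were not well above background on every array and are not read further.

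In lung 3 of the 45 genes, all class I, had every HDM rat below every control rat, a pattern found with HDM lower in 5.00% of all probes. RT1-CE11 measured 3.34, 3.23, 3.25, 3.26 and 3.13 in HDM rats and 3.36, 3.48 and 3.50 in controls, a log2 change of -0.20 (SE 0.10, adjusted p = 0.551). RT1-T24-4 measured 6.23, 6.13, 6.21, 6.05 and 5.95 against 6.32, 6.32 and 6.28, a change of -0.19 (SE 0.10, adjusted p = 0.654). Its 3 probes ranged from -0.19 to -0.16, but only the brightest, given here, kept the groups apart. RT1-O1 measured 0.33, 0.52, 0.55, 0.58 and 0.55 against 0.63, 0.65 and 0.64, a change of -0.13 (SE 0.10, adjusted p = 0.804). None of these differences reached 1.5-fold.

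The lung data were precise enough to bound many of these changes. The 95% interval of the change lay within 1.5-fold in both directions for 22 of 32 class I genes and 6 of 10 class II genes. RT1 class I genes are near-identical in sequence, and whether a probe also measures a neighbouring gene was not tested. In whole tissue, fewer cells of a type and less RNA per cell cannot be told apart.

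Genes that load class I molecules were measured in lung beside RT1. Of 12 measured loading genes none was called and 9 lay above 0, against 50.7% of all probes, with a median change of 0.17. By limma 4 had an unadjusted p below 0.05, against 10.2% of all probes. Tap2, a chain of the peptide transporter, measured 2.56, 2.73, 2.71, 2.99 and 2.82 in HDM rats and 0.87, 0.49 and 2.42 in controls, a log2 change of 1.5 (SE 0.39, adjusted p = 0.176). The immunoproteasome subunits Psmb8 and Psmb9 changed by 0.35 and 0.39, both with an adjusted p of 0.169, and Tapbpl, a peptide editor, by -0.61 (adjusted p = 0.452).

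On the interferon-gamma route, which raises both classes, 12 of 13 genes lay above 0, against 50.7% of all probes, with a median of 0.30. None was called, and by limma 6 had an unadjusted p below 0.05, against 10.2% of all probes. Gbp2, an interferon-induced GTPase, measured 3.84, 3.71, 3.73, 3.74 and 3.77 in HDM rats and 3.30, 3.36 and 3.03 in controls, a log2 change of 0.53 (SE 0.11, adjusted p = 0.0865). Irf1, a transcription factor of the route, changed by 0.24, and Ifng itself did not rise well above background in any lung. Ifi30, a lysosomal thiol reductase of class II processing, changed by 0.26 within a list of 9 genes whose median was -0.01. Of the 7 promoter factors, with a median of 0.09, Rfx5, which binds the X box, changed by 0.18. The medians were -0.10 for 6 class I-like genes outside RT1, where Cd1d1 changed by 0.22, and 0.12 for 5 costimulation genes. None of these 4 lists held a called gene.

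Markers of immune cells were also compared between the lung groups. For neutrophils 5 of 6 markers were called higher, against 0.482% of all probes, and their summed signal, on the same scale, was 129 to 275 in HDM rats against 14.2 to 15.1 in controls. For eosinophils 1 of 5 was called higher, Siglec5 at 0.97, with sums of 2.17 to 3.88 against 0.947 to 1.39. Dendritic cell markers summed to 2.50 to 2.75 in HDM rats and 3.25 to 3.47 in controls, macrophage markers to 24.5 to 26.3 against 21.7 to 23.6, B cell markers to 6.06 to 7.53 against 5.31 to 5.86, and T and NK cell markers to 17.1 to 20.6 against 14.7 to 18.3, and no marker of these 4 cell types was called. Such sums weigh bright genes most. By gene, 2 of 6 dendritic cell, 5 of 8 macrophage, 4 of 6 B cell and 8 of 9 T and NK cell markers lay above 0. Among all probes 50.7% did. The part of these cells in the RT1-DM values was not tested.

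The same comparison was made in adipose tissue. No RT1 gene or partner was called, and none of all probes was called either, a background of 0%. By limma none of the 45 genes had an unadjusted p below 0.05, against 9.90% of all probes, and the methods' t-test likewise called none and had 0 below 0.05. Class II genes lay above 0 in 8 of 10 cases, with a median of 0.25 and a range from -0.29 to 0.43, and class I genes in 17 of 32, with a median of 0.01. All probes had a median of -0.15, with 35.8% above 0. For no gene did the HDM and control rats fail to overlap, a pattern found in 1.54% of all probes with HDM higher and in 4.73% with HDM lower. When arrays were scaled to their medians instead, the medians were 0.14 for all probes, 0.31 for class I and 0.55 for class II.

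The class II genes of adipose tissue varied widely between rats. RT1-Da measured 3.58, 3.55, 3.93, 4.65 and 4.06 in HDM rats and 3.02, 3.65 and 3.89 in controls, a log2 change of 0.43 (SE 0.31). RT1-Ba measured 1.28, 1.09, 1.68, 2.31 and 1.69 against 1.01, 1.27 and 1.63, a change of 0.31. Cd74 measured 4.72, 4.65, 5.16, 5.76 and 5.27 against 4.35, 4.92 and 5.32, a change of 0.25 (SE 0.32). The groups overlapped for each of these genes, and HDM rat 4 was the highest rat for 6 of the 7 class II genes that were well above background on every adipose array. The exception was RT1-DMa, which was highest in HDM rat 1 at 2.84 and next in control rat 1 at 2.26, while the other 6 rats lay between 1.14 and 2.06. Those 2 rats were the ones with epididymis and testis markers. RT1-DMb, its partner chain, was 1.63 in HDM rat 1 and 1.35 in control rat 1, within the range of the other rats.

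The remaining class II genes gave 0.39 for RT1-Bb, 0.27 for RT1-Db2, 0.25 for RT1-Db1, 0.17 for RT1-DMa and 0.12 for RT1-DMb. RT1-DOa, RT1-DOb and RT1-Ha were not well above background on every array. B2m changed by 0.34 (SE 0.23) and was lowest in control rat 1 at 6.84, against 7.77 and 7.34 in the other controls, and Ciita changed by -0.00. No class II interval lay within 1.5-fold in both directions, and that of RT1-Da ran from -0.28 to 1.15.

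Class I genes in adipose tissue split the rats in another way. Of the 23 class I genes well above background on every array, 12 were lowest in control rat 1 and 9 in HDM rat 1. RT1-A2 measured 6.95, 7.43, 7.42, 7.40 and 7.44 in HDM rats and 7.01, 7.64 and 7.21 in controls, with the low values again in HDM rat 1 and control rat 1. The largest changes, -0.90 for RT1-M4, -0.89 for RT1-M1-4 and 0.75 for RT1-M6-1, belonged to probes that were not well above background on every array. Over these 23 genes the median deviation from the control mean was -0.31, 0.07, 0.17, 0.22 and 0.04 in the HDM rats and -0.38, 0.30 and 0.07 in the controls. Without HDM rat 1 and control rat 1 the class I median was -0.06, the class II median was 0.23 and no gene was called. Neutrophil markers summed to 166, 7.97, 11.6, 8.53 and 8.33 in the HDM rats and 413, 3.85 and 17.6 in the controls, and were likewise highest in HDM rat 1 and control rat 1. Of these 6 markers 5 lay above 0 in HDM rats, against 35.8% of all probes, with a median change of 1.38. By limma 3 had an unadjusted p below 0.05, against 9.90% of all probes, and none was called. The part of epididymal RNA or of neutrophils in the class I values was not tested.

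Macrophage markers in adipose tissue lay above 0 in 8 of 8 cases, against 35.8% of all probes, with a median change of 0.70 and none called. Their summed signal was 72.5, 139, 195, 241 and 209 in HDM rats and 53.6, 128 and 110 in controls, and was highest in HDM rat 4, as were most class II genes. Their part in the class II values was not tested. Of the class II processing genes 8 of 9 lay above 0, with Ifi30 at 0.65, and no gene of the 6 antigen presentation lists was called in adipose tissue.

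**Figure D3:**
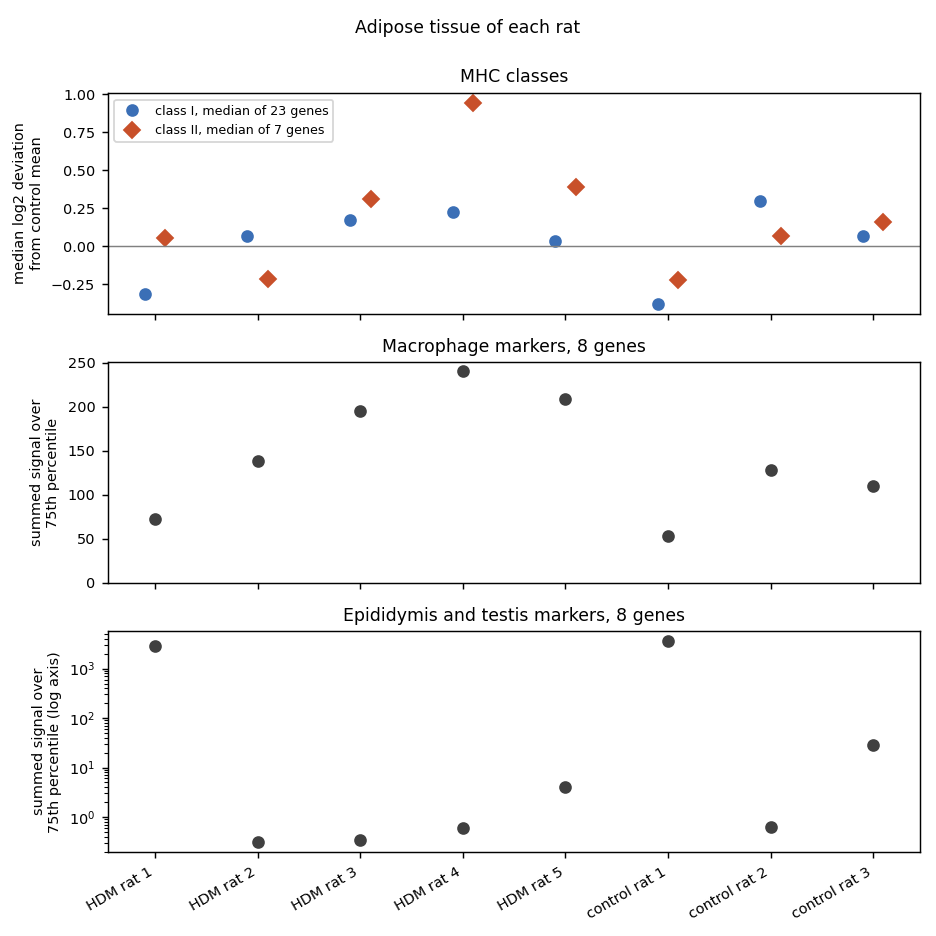
Adipose tissue of each rat (x axis), showing the median log2 deviation from the control mean over 23 class I and 7 class II genes (top), and the summed signal, as a multiple of the array's 75th percentile, of 8 macrophage markers (middle) and of 8 epididymis and testis markers (bottom, log axis). The class II median was highest in HDM rat 4 at 0.94, where the macrophage sum was also highest at 241, and the class I median was lowest in control rat 1 and HDM rat 1, at -0.38 and -0.31, the rats with the highest epididymis and testis sums.

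Whether HDM acted differently in the 2 tissues was tested on the within-rat differences between lung and adipose tissue. No gene of the 45 was called, against 0.00219% of all probes, and by limma 1 gene had an unadjusted p below 0.05, against 7.74% of all probes. That gene was RT1-T24-3, with a log2 change in lung larger by 0.68 (SE 0.21, 95% CI 0.20 to 1.16, adjusted p = 0.521). It changed by 0.44 in lung and by -0.24 in adipose tissue. The median difference of change was -0.04 for class II and -0.03 for class I. For RT1-DMb the difference was 0.23 (SE 0.26) and for RT1-DMa 0.12 (SE 0.40), so the RT1-DM values of lung were not shown to differ from those of adipose tissue.

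The 2 tissues themselves differed in the control rats. Of 45 genes 30 were called, 27 higher and 3 lower in lung, against 44.3% of all probes called, 12.0% higher and 32.2% lower. The median over all probes was -0.58 under this scaling, and -0.06 under quantile normalization. The differences and folds below are given without correction for that shift. All 10 class II genes lay higher in lung, as did 31.2% of all probes, with 8 called, a median log2 difference of 0.98 and a range from 0.38 to 2.55, and all 10 stayed higher under each of the 4 scalings tried. Among class I genes 17 were called higher. Of the 27 genes called higher, 25 were higher in lung in 8 of 8 rats. Without HDM rat 1 and control rat 1, 19 were called higher and 1 lower.

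**Figure D4:**
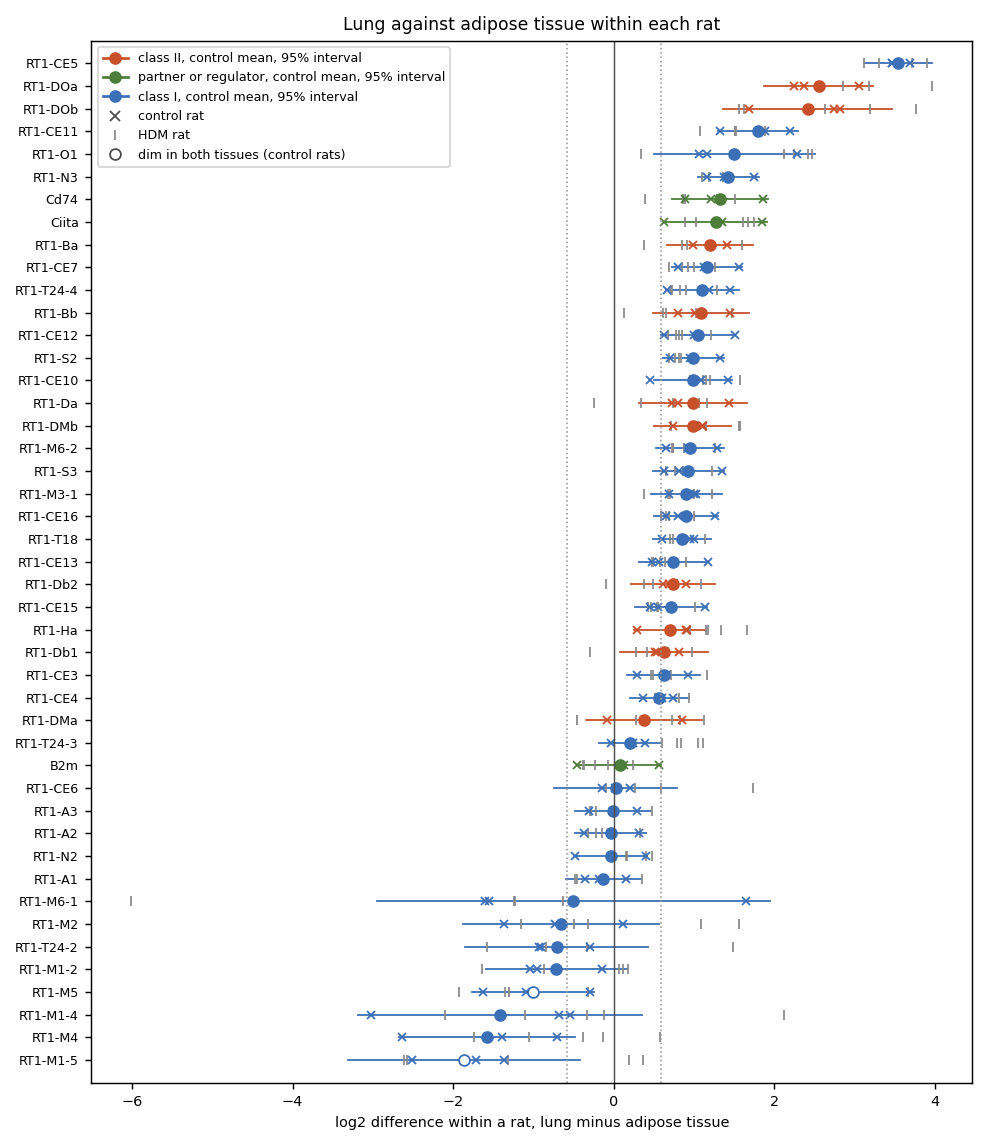
Within-rat log2 difference, lung minus adipose tissue (x axis), for each gene (y axis), with the control mean and its 95% confidence interval as a point and bar, crosses for the 3 control rats, ticks for the 5 HDM rats, dotted lines at 1.5-fold and open points for probes not well above background in either tissue of the control rats. RT1-CE5 stands at 3.54, while RT1-A1, RT1-A2, RT1-A3 and B2m lie between -0.13 and 0.07.

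Ciita, Cd74 and most class II genes were called higher in lung. Ciita and Cd74 were higher by 1.28 (SE 0.27) and 1.32 (SE 0.26), 2.42-fold and 2.50-fold, in 8 of 8 rats. RT1-Ba and RT1-Bb were higher by 1.2 and 1.08, and RT1-Da, RT1-DMb and RT1-Db2 by 0.98, 0.98 and 0.73. RT1-Ha was also called, but it was well above background on 1 control lung array and on no control adipose array, so no fold is given. RT1-DOa and RT1-DOb, modulators that are known mainly from B cells, were not well above background in adipose tissue of control rats, and were at least 2.95-fold and at least 3.58-fold higher in lung. These bounds set the lung mean against, on each adipose array, the higher of the probe's own signal and the lowest signal counted as well above background. RT1-Db1 (0.62, adjusted p = 0.0633) and RT1-DMa (0.38, adjusted p = 0.338) were not called. HDM rat 4, whose adipose class II values were high, was the rat in which RT1-Da, RT1-Db1 and RT1-Db2 fell below 0, at -0.25, -0.30 and -0.10.

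Class I genes varied in the size of the difference. RT1-CE5 had the largest difference of the 45 genes. Its level in control rats was 4.56 ± 0.09 (SD, n = 3) in lung and 1.02 ± 0.23 (SD, n = 3) in adipose tissue, a log2 difference of 3.54 (SE 0.18), or 11.6-fold, with an adjusted p of 1.95e-05. The within-rat differences were 3.89, 3.71, 3.51, 3.11 and 3.30 in HDM rats and 3.46, 3.47 and 3.69 in controls, so lung exceeded adipose tissue in 8 of 8 rats and by similar amounts in both groups. RT1-CE11 followed among its family with 1.79 (SE 0.22), 3.47-fold, and its differences ran from 1.07 to 2.19 over the 8 rats.

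All 11 RT1-CE genes lay higher in lung and 9 were called. The others called were RT1-CE7 at 1.16, RT1-CE12 at 1.04, RT1-CE10 at 0.99, RT1-CE16 at 0.90, RT1-CE13 at 0.74, RT1-CE15 at 0.71 and RT1-CE3 at 0.62. Outside that family, RT1-O1 was higher in lung by 1.5, RT1-N3 by 1.42, RT1-T24-4 by 1.1, RT1-S2 by 0.99, RT1-M6-2 by 0.95, RT1-S3 by 0.93, RT1-M3-1 by 0.90 and RT1-T18 by 0.85. Of the 3 genes called lower, RT1-M4 differed by -1.58 (SE 0.48), and RT1-M5 and RT1-M1-5 were not well above background in either tissue, so no fold is given for them. For RT1-M4 the control rats differed by -2.64, -1.39 and -0.71, the first in control rat 1, whose adipose array held epididymis and testis markers. HDM rat 1, with the same markers, differed by -0.13. Over 16 alternatives RT1-M4 ran from -2.01 to -0.40, with an adjusted p from limma below 0.05 in 11 and up to 0.185.

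For the classical class I genes no difference was called under the 75th percentile scaling. RT1-A1, RT1-A2 and RT1-A3 differed by -0.13, -0.04 and -0.01 between lung and adipose tissue, and B2m by 0.07 (SE 0.22), with none called. Their sign depended on the scaling. Under quantile normalization the 3 RT1-A genes lay at 0.52 to 0.69, with arrays scaled to their medians at 0.12 to 0.24, and after normexp at 0.54 to 0.73. RT1-A1 met the call as higher in lung under quantile normalization (adjusted p = 0.0439), and RT1-A1 and RT1-A3 did so after normexp (adjusted p = 0.0225 and 0.0279). The called RT1-CE genes were higher in lung under every one of these scalings.

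Leukocyte markers and antigen presentation genes were compared between the tissues as well, where 12.0% of all probes were called higher in lung and 32.2% lower. For macrophage markers and class II processing genes, the counts called lower lay near the latter share. Of the T and NK cell markers 7 of 9 were called higher in lung of control rats, of the B cell markers 4 of 6 higher and 1 lower, of the dendritic cell markers 3 of 6 higher and 1 lower, and of the macrophage markers 3 of 8 higher and 3 lower. The B cell marker list had a median log2 difference of 3.23. Of the class I loading genes 1 of 12 was called higher in lung and none lower. Of the class II processing genes 1 of 9 was called higher, Ctsh at 0.83, and 3 were called lower, the lysosomal proteases Ctsb and Ctsl at -1.11 and -0.84 and Marchf1, a ubiquitin ligase that removes class II from the cell surface, at -1.31, with a list median of 0.03. The part of these cells in the class II and RT1-CE differences was not tested.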

How the data were processed

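RNA from lung and adipose tissue (50 ng per sample) was labelled with Cy3 and hybridised to Agilent rat arrays, 1 colour. The authors deposited scanner files with background-corrected signal intensity from Feature Extraction 12.0.3.1, and a table of log2 values, which matched within 0.1 the scanner values shifted to the 75th percentile and centred on each probe's median. Depth does not apply to arrays, and the 5 and 3 rats limit the precision.

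Outlier spots were dropped, spots of a probe averaged, and log2 processed signal minus each array's 75th percentile was tested with limma 3.58.1 in R 4.3.3, with Benjamini-Hochberg adjustment over all 45598 probes. The HDM comparison was run in each tissue on its own. Tissues were compared on within-rat differences. Tests ran on simulated data first. Probes were named through RefSeq transcripts (21229 probes). Genes were named in the text if they were class II genes or partners, class I genes called in any comparison, among the 5 brightest class I genes or the 3 with the largest change in a tissue, or the list genes called or with the smallest p. One gene that this rule names is not reported here. The members and lists were chosen with earlier results of these data known. Each rat was 1 replicate. Alternatives were other scalings, normexp with an offset of 50, the deposited table, dim probes left out, array weights, the slide row, the replicate number as a block, the methods' t-test and each rat left out. The motif letters were set after promoters had been seen. Promoters came from RefSeq on GRCr8 and were not placed on the array's own genome build.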

Additional observations from a re-analysis of the deposited data

Results flagged for a closer look

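Among 90 sets of 5 HDM rats (45 genes in 2 tissues), 7 held a rat that stood apart from the others by more than 0.71 of the range of the set, and chance gives about 1 in 20. RT1-A2 and RT1-A3 in adipose tissue were low in HDM rat 1, at 6.95 against 7.40 in the next rat and at 7.36 against 7.80, and this is one of the 2 adipose arrays with epididymis and testis markers. RT1-O1 was low in lung of HDM rat 1, at 0.33 against 0.52, and high in adipose tissue of HDM rat 2, at 0.18 against -1.57. RT1-M6-1 in adipose tissue of HDM rat 2 was -1.27 against -6.54, and this was the only adipose array on which it was well above background. RT1-M5 in HDM rat 2, at -5.12 against -6.42, and RT1-T24-2 in HDM rat 3, at -6.48 against -5.14, were not well above background on any adipose array. The causes were not tested.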

How the results depend on the processing

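No RT1 gene was called for HDM in lung, in adipose tissue or in the difference between them under any alternative run. The lung class II median, 0.15, was 0.10 with dim probes left out, and ranged from 0.073 to 0.19 when each rat was left out. The lung class I median, -0.04, was -0.11 with the slide row as a block. The adipose class I median, 0.01, was 0.31 with arrays scaled to their medians. Between tissues, quantile normalization gave 31 genes called higher in lung and 0 lower, scaling to medians 29 and 1, and normexp 29 and 0, against 27 and 3. RT1-A1 turned from -0.13 to 0.69 under quantile normalization and to 0.73 after normexp, RT1-A3 from -0.01 to 0.65 after normexp, and RT1-M5, dim in both tissues, to 0.26 and 0.031. Counting each of the 58 probes, in place of 1 per gene, gave 41 probes called. Leaving out each rat gave 20 to 30 calls, and 20 without control rat 1. The causes were not tested.

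Rats with the same number deviated together with correlations of -0.06, -0.08 and 0.05 on the lung arrays and of 0.59, 0.14 and 0.097 on the adipose arrays, so numbers were not taken to pair HDM with control rats. With the replicate number as a block, the class I median was -0.02 and the class II median 0.13 for lung, -0.03 and 0.03 for adipose tissue, and 0 genes were called. Without the rat as a block between tissues 30 genes were called, and 0 for the difference of change. Few control rats and dim adipose signal limit what could be detected.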
